A study of Mus musculus with 2 samples.

Results

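Divergent promoter lncRNAs are long non-coding RNAs (lncRNAs) whose gene starts close to the start of a protein-coding gene and is read from the opposite strand. The members were the lncRNAs of the known-lncRNA table with the GENCODE M21 type lincRNA or bidirectional promoter lncRNA, a gene 5′ end within 2 kb of the 5′ end of an opposite-strand coding gene, and under 50 exon bases shared with coding exons. Of 614 listed lncRNAs, 62 met these criteria. The criteria left out 14 lncRNAs by name, of which 1, C230088H06Rik, met all the others. It had 66 reads in the high fat and 32 in the normal diet library described next, a log2 ratio of 1.37, and would add a call of higher to the counts given further on.

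The samples were livers of wildtype C57BL/6 mice taken in week 27 after birth. RNA of mice fed a 60% high fat diet (HFD) for 23 weeks gave 1 library, and RNA of mice kept on a normal diet (ND) gave the other. The labels call the source hepatocytes, whereas the extraction protocol describes frozen liver, and neither says how many animals went into a library. The comparison asks which of these lncRNAs differed in level between the diets, and with 1 library per diet it has no replicate check and no test.

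Many mammalian promoters are transcribed in both directions. RNA polymerase moves away from a shared nucleosome-free stretch along both strands, and the transcript opposite the coding gene is often short-lived, although some are spliced and stable enough to be annotated as lncRNAs. Such promoters are usually rich in CpG dinucleotides and poor in TATA boxes. A lncRNA of this kind shares its promoter stretch with its coding partner, but coding genes are not listed in the table, so levels of the partners were not analysed here.

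The geometry matched the name for most, but not all, members. In 53 of the 62 the starts lay apart, so that both genes ran away from each other, with a median distance of 245 bases (lower and upper quartile 123 and 488, range 3 to 1878). In the other 9 the lncRNA started inside the span of its partner, by 38 bases for Mkln1os up to 1833 bases for Gm17300. Gm17300 and Gm43332 lie wholly inside the spans of Rcc1 and Hmgb1, with 1611 and 1044 shared span bases. The others overlap their partner head to head, and none of the 9 has a separate stretch between the starts. GENCODE gives 53 members the type lincRNA and 9 the type bidirectional promoter lncRNA, out of 17 lncRNAs of the latter type in the table. A median member had 1420 exon bases, and 6 members were unspliced. Every one of the 62 had exactly 1 coding partner within 2 kb. Chromosome 5 carried 11 members (17.7%), against 58 of all listed lncRNAs (9.45%).

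The stretches that members shared with their coding partners are shown for the 7 members that had at least 20 reads in a library, starts within 300 bases of each other and at least 90 bases of sequence in the promoter windows, to show the close pairs among the well-read members whose sequence was at hand. They are from RefSeq, build GRCm38.p6, are written 5′ to 3′ on the strand of the coding gene, and end at the base before the coding gene's 5′ end. Capitals mark matches, on either strand, to common promoter motifs. Those found were the GC box bound by the Sp1 family (searched as GGGCGG), the box bound by nuclear factor Y (searched as CCAAT), the core of sites of the ETS family (TTCCGG), the E-box (CACGTG) and the middle of the cyclic AMP response element (TGACGT). Neighbouring GC boxes can overlap each other by a base. A match is one of letters and not a site shown to be bound.
Gm26608 and Insig1: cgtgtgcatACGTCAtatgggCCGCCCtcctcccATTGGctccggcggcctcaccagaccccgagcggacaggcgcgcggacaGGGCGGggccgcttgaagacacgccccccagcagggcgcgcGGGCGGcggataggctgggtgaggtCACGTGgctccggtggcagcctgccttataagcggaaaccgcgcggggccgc
4930516B21Rik and Exog: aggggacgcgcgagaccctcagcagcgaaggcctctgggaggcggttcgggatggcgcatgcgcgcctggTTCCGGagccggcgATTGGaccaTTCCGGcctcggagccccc
2810030D12Rik and Grtp1: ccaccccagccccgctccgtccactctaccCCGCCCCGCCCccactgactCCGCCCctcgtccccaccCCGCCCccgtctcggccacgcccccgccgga
Fam120aos and Fam120a: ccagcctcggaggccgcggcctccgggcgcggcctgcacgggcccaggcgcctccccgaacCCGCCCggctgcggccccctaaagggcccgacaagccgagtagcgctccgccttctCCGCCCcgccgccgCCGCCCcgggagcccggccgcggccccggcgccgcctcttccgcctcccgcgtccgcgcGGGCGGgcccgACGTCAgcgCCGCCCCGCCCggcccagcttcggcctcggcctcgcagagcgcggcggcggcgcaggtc
Gm26753 and Zfp53: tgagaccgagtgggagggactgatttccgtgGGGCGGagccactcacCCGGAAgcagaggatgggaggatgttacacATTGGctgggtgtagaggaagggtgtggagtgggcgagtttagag
Gm17705 and Prrc2a: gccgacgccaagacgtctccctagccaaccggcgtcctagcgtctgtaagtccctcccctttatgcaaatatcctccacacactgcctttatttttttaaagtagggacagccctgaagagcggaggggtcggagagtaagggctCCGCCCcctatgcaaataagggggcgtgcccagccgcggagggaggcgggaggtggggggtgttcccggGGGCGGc
Mkln1os and Mkln1: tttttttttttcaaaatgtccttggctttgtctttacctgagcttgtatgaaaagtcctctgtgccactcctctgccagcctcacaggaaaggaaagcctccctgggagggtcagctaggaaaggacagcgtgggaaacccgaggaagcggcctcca

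The Gm26608 and Insig1 stretch (chr5:28071162-28071362, plus strand) covers the 201 bases next to Insig1, with 72.6% G and C, and the starts lie 258 bases apart. It holds 3 GC boxes, 1 CCAAT box, 1 E-box and 1 match to the cyclic AMP motif. The stretches of Exog (chr9:119444831-119444942, plus strand), Grtp1 (chr8:13200621-13200719, minus strand), Fam120a (chr13:48968018-48968286, minus strand), Zfp53 (chr17:21488876-21488997, plus strand) and Prrc2a (chr17:35164898-35165118, minus strand) run the whole way between both starts. That of Fam120a is the richest of these in G and C, at 84.0%. The Mkln1 stretch (chr6:31398578-31398734, plus strand) lies inside the Mkln1os gene, because the starts of this pair overlap. Unlike the other 6 it holds none of the motifs, with 51.0% G and C, but it is not the stretch before the Mkln1os start. The promoter windows described next held a GC box for both Mkln1os (72.7% G and C) and Mkln1 (62.3%). The letters searched for the sterol regulatory element, the site of SREBP, were TCACNCCAC. They occurred in none of the 7 stretches and in 1.24% of all 32851 promoter windows of the RefSeq table. Absence from 7 stretches, each shorter than a promoter window, says little beside so low a share. The Insig1 stretch also leaves out the bases nearest Gm26608.

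Promoter windows of 300 bases, 250 before and 50 after the RefSeq start, were matched by symbol and by a start within 100 bases of the GENCODE 5′ end for 25 members and for 46 coding partners. Of the members with at least 20 reads, only 2810030D12Rik, 4931440J10Rik, 9330136K24Rik, Mkln1os and 9330104G04Rik were matched. Gm17300, Gm38102, Gm26608 and Gm17281 had no window of their own. Member windows thus come mostly from members under 20 reads and do not describe all members. Member windows had a median of 66.0% G and C, and partner windows 64.0%, against 56.3% over the 21263 windows of coding genes. CpG content, as observed over expected number of CpGs, was 0.734 (quartiles 0.612 and 0.934) in member windows and 0.862 in partner windows, against 0.567 in all coding windows and 0.235 in the 56 matched windows of other lincRNAs with under 50 shared coding exon bases and no opposite coding start within 2 kb. At least 0.6 was reached by 20 of 25 member windows, 35 of 46 partner windows and 11 of 56 windows of those other lincRNAs. Windows of a member and its partner often cover the same bases, so they are not separate evidence, and the criterion of a nearby coding start by itself places them at coding promoters. No test was made of these differences.

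**Figure D1:**
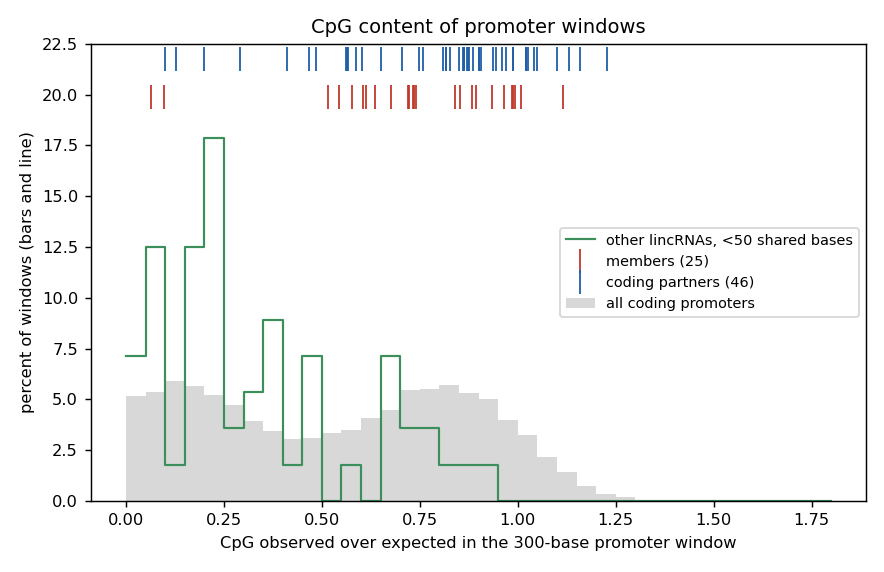
CpG observed over expected (x axis) in promoter windows of 300 bases. Bars show the percent of all coding promoter windows per bin and the line that of other lincRNAs, while ticks above mark each of the 25 members (lower row, median 0.734) and 46 coding partners (upper row, median 0.862), most of which lie at 0.5 or above.

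Motifs were counted on both strands of the same windows, without a test. A GC box was in 18 of 25 member windows (72.0%), in 73.9% of partner windows, in 46.2% of coding windows and in 35.7% of all promoter windows. The ETS letters were in 9 member windows (36.0%), in 30.4% of partner, 18.7% of coding and 14.9% of all windows. A CCAAT box was in 8 (32.0%), against 37.4% of all windows. The TATA box (searched as TATAAA) was found in 1 member window (4.0%), that of 9330104G04Rik opposite Dact3, against 13.6% of all windows. The letters within the site of the liver factor HNF4 (CAAAGTC) were in none of the 25 and in 4.44% of all windows. Those of forkhead factors (TGTTTAC) were likewise in none, against 3.65%. Absence from 25 windows says little beside shares this low. The middle of the NRF1 site (TGCGCA) was in 3 member windows (12.0%), against 7.76%.

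Read levels of the members were low and unevenly spread. Reads were recovered from the deposited CPM values, in which reads are scaled to a fixed total per library, with totals of 193538 reads in the HFD library and 242194 in the ND library. Listed lncRNAs held 193260 and 241812 of these, so the shares below are of lncRNA reads and not of all reads of a library. The members together held 4348 and 6244 reads, which is 2.25% (95% exact binomial interval 2.15 to 2.34) and 2.58% (2.49 to 2.67) of the totals. A single member, Gm17300, supplied 62.8% and 57.6% of these reads. Without it the remaining 61 members held 0.835% (0.779 to 0.894) of the HFD total and 1.09% (1.03 to 1.15) of the ND total. All intervals here cover counting error only. In bulk liver, fewer cells of a type and less RNA per cell cannot be told apart.

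A median member had 8 reads in the HFD library and 10 in the ND library, and 23 of 62 (37.1%) reached 20 reads in at least 1 library, against 364 of 614 (59.3%) over the whole table. Per length, members had a median of 33.6 CPM per kb of exon (quartiles 9.80 and 101) in the HFD library and 34.1 (12.3 and 73.9) in the ND library. The 280 other lincRNAs with under 50 shared bases stood at 36.9 and 47.8 CPM per kb, and the 146 lincRNAs that share at least 50 bases with coding exons at 336 and 380. The members' medians were thus nearest to those of the other lincRNAs, a description without a test. Whether reads were counted by strand is not stated. If they were not, levels of the lincRNAs with coding exon overlap, which are part of the whole table, could include reads of coding genes. This was not tested.

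**Figure D2:**
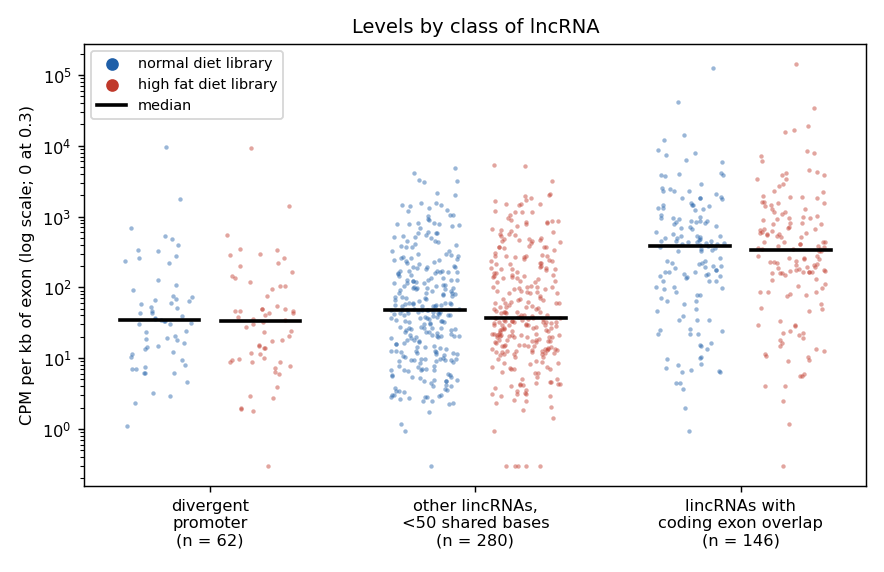
CPM per kb of exon (y axis, log scale) for the 62 members, the 280 other lincRNAs and the 146 lincRNAs with coding exon overlap in each library, 1 point per lncRNA with a bar at the median. The medians of the members, 33.6 and 34.1, lie far under those of the lincRNAs with coding exon overlap, 336 and 380. The latter could include reads of coding genes if reads were not counted by strand, which is not stated.

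Levels were also set out by the position of the starts, without a test. The 9 members that start inside their partner had medians of 50.04 CPM per kb (quartiles 34.6 and 336) in the HFD and 63.3 (39.0 and 334) in the ND library, and 7 of them reached 20 reads. The 53 with starts apart had 27.7 (9.41 and 75.6) and 31.1 (12.0 and 68.5), and 16 reached 20 reads. The quartile ranges of both sets overlapped. Among these 53, the medians were 30.3 and 24.2 for distances up to 200 bases (23 members), 20.3 and 35.6 for more than that and up to 500 bases (17) and 41.2 and 32.9 beyond 500 bases (13), with no steady order by distance.

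**Figure D3:**
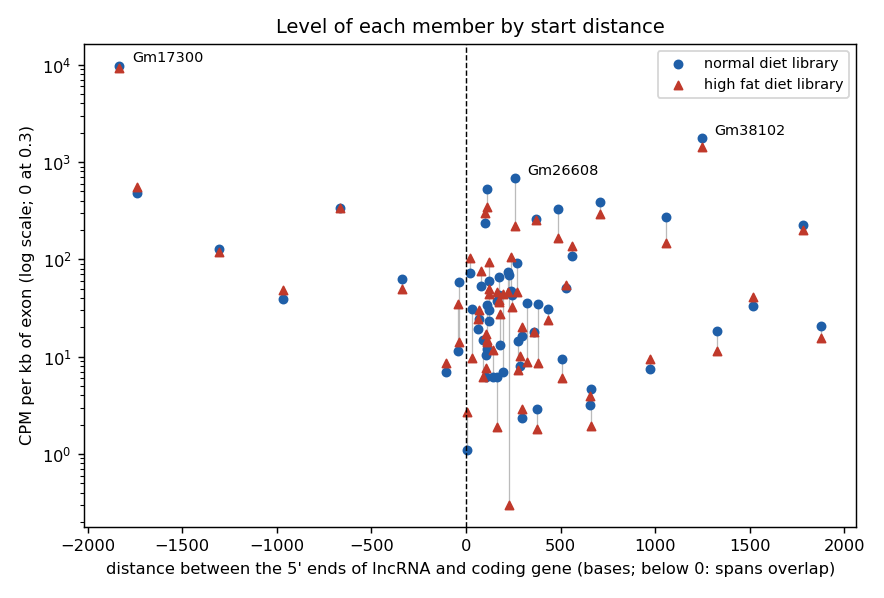
Distance between the 5′ ends of lncRNA and coding gene in bases (x axis; values under 0 mean that the spans overlap) against CPM per kb of exon (y axis, log scale), with a grey line joining both libraries of a member. Most members lie within 500 bases of their partner, and Gm17300 and Gm38102, the members with the highest values, lie 1833 and 1247 bases from theirs.

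The most abundant member was Gm17300 (ENSMUSG00000091021, chromosome 4, 132351772 to 132353382), which had 2732 reads in the HFD library and 3598 in the ND library and ranked 9th of the 614 by reads. Its log2 ratio of the high fat to the ND library was -0.07 (95% interval -0.18 to 0.03). Its coding partner Rcc1 encodes the nucleotide exchange factor of the nuclear transport GTPase Ran. On the opposite strand its 1527 exon bases share 705 with Snhg3, a host gene of small nucleolar RNAs, 175 with Snora73a and 205 with Snora73b, but only 19 with Rcc1. Whether reads were counted by strand is not stated in the labels. It is thus not known whether the reads of Gm17300 include reads of Snhg3 and its small nucleolar RNAs.

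Gm38102 (ENSMUSG00000104156) and AI480526 (ENSMUSG00000090086) lie opposite each other on chromosome 5, between Rhof and the histone methyltransferase gene Setd1b. They share 1525 exon bases, and AI480526 shares another 1622 with the lincRNA 4932422M17Rik (856 and 1296 reads) on the strand opposite to it, so the readings are not separate unless reads were assigned by strand. Gm38102 had 550 reads in the HFD library and 850 in the ND library, a log2 ratio of -0.30 (-0.53 to -0.08). AI480526 had 50 and 58, a ratio of 0.11 (-0.72 to 0.93). The interval of Gm38102 lay below 0 but its difference was under 2-fold, whereas that of AI480526 included 0. Gm20186, which starts 372 bases from Lsm8 (a subunit of the ring bound to U6 small nuclear RNA), shares 855 of its 1050 exon bases with the very abundant lincRNA Gm26809, and had 52 and 66 reads (log2 ratio -0.02, -0.82 to 0.77) against 15728 and 22798 for Gm26809.

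A member was called higher or lower when its CPM differed at least 2-fold between the libraries with at least 20 reads in the higher one. Of the 23 members with that many reads, 1 was higher in the HFD library (4.35%), 2 were lower (8.70%) and 20 were not called. Of the 364 lncRNAs in the whole table that reached the minimum, 7.69% were called higher and 8.24% lower, so the members' shares were near the background at this limit. At 1.5-fold, 2 of the 23 were higher (8.70%) and 8 lower (34.8%), against 15.9% and 18.1% of the 364. Log2 ratios of the 23 ran from -2.07 to 1.59 with a median of -0.30, against -0.01 over the 364. They were below 0 for 16 and above 0 for 7, against 192 and 172 over the table. The interval lay below 0 for 4 of the 23, included 0 for 19 and lay above 0 for none.

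**Figure D4:**
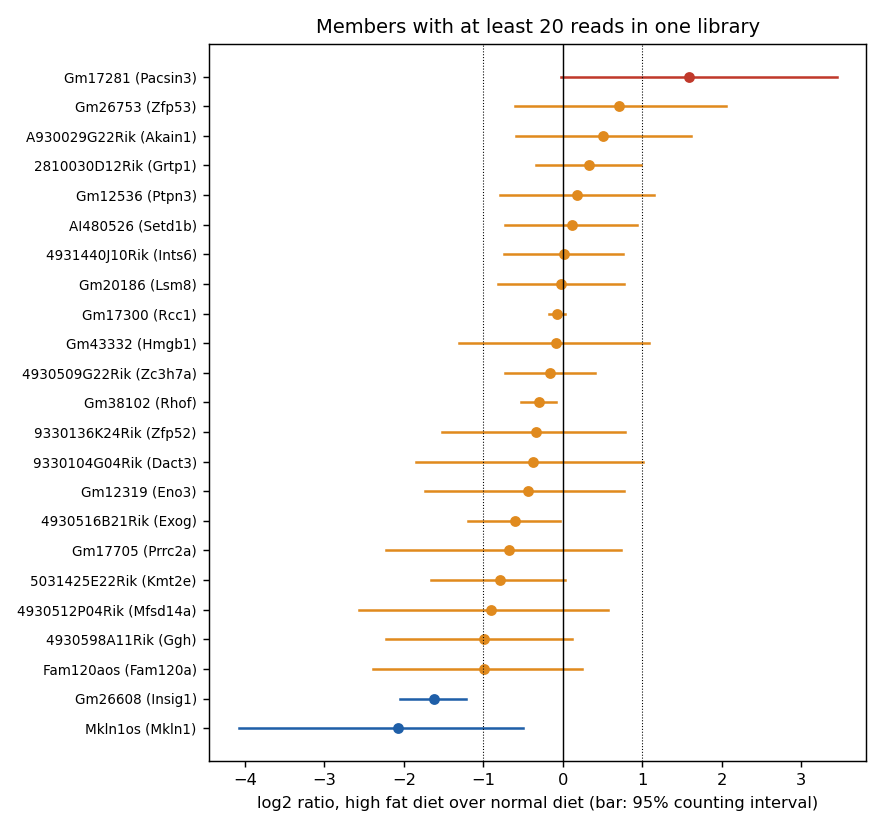
Log2 ratio of the high fat to the ND library (x axis) for the 23 members with at least 20 reads in a library, each with its coding partner in brackets, where bars are 95% counting intervals and dotted lines mark 2-fold. Gm26608 and Mkln1os lie beyond 2-fold lower with intervals below 0, and the interval of Gm17281, the 1 member called higher, reaches just below 0.

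Gm26608 (ENSMUSG00000097673, chromosome 5, 28019465 to 28071105, minus strand) was the called member with the most reads. It starts 258 bases from Insig1, whose product holds the sterol-sensing SREBP machinery in the endoplasmic reticulum and so restrains cholesterol and fatty acid synthesis in liver. The high fat diet library held 124 reads (95% Poisson interval 95.1 to 159) and the ND library 478 (419 to 543). These intervals did not overlap, and Gm26608 was 3.08-fold lower in the HFD library (2.32 to 4.14, log2 ratio -1.62, -2.05 to -1.21). In the authors' deposited table its adjusted p-value is 3.64e-17, which rests on counting error of these 2 libraries. Its 2886 exon bases are shared with no other annotated gene, and no stretch of at least 100 bases with 98% identity was found in the transcripts of a gene elsewhere. Its stretch next to Insig1 is the first of those printed above.

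Mkln1os (ENSMUSG00000086212, chromosome 6, 31366885 to 31398773) had 8 reads in the HFD library (2.18 to 20.5) and 42 in the ND library (26 to 64.2). Its level was 4.20-fold lower in the HFD library, with a wide interval of 1.42 to 16.8. The partner Mkln1 encodes muskelin, a subunit of the CTLH ubiquitin ligase, and shares 39 exon bases with Mkln1os. Reads there are not separate unless they were assigned by strand, which is not stated. The authors' deposited table gives it an adjusted p-value of 0.0132 and marks it and Gm26608 as significant, and no other member.

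Gm17281 (ENSMUSG00000097317, chromosome 2, 91250743 to 91255995) was the only member called higher, with 24 reads in the HFD library against 10. The ratio was 3.003-fold with an interval of 0.985 to 10.9, so its Poisson intervals (12.4 to 41.9 and 3.25 to 23.3 reads) overlapped and the call rests on few reads. Pacsin3, its partner, encodes a membrane-bending adaptor of endocytosis and shares 42 exon bases with it. Gm17281 also has a near-identical stretch in 1 gene elsewhere, as do Gm20186 (1 gene) and 4930509G22Rik (7 genes).

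A pair of members lay at the edge of the 2-fold limit. 4930598A11Rik, opposite Ggh, which encodes a hydrolase of folate polyglutamates, had 20 reads in the HFD library and 50 in the ND library. Fam120aos, opposite the RNA-binding protein gene Fam120a, had 16 and 40. Both had a log2 ratio of -0.998, just short of 2-fold, with intervals that included 0 (-2.22 to 0.11 and -2.39 to 0.25).

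The remaining well-read members differed by less than 2-fold. 4930516B21Rik, opposite the mitochondrial nuclease gene Exog, had 80 reads in the HFD library and 152 in the ND library, with a log2 ratio of -0.60 (-1.19 to -0.03). 5031425E22Rik, opposite the chromatin regulator gene Kmt2e, had 38 and 82 (-0.79, -1.65 to 0.03). Of these, only the first had an interval below 0. 4930509G22Rik, which starts 1783 bases from the RNA-binding protein gene Zc3h7a, had 96 and 134 reads (-0.16), and 2810030D12Rik, opposite Grtp1, a gene named for its regulation by growth hormone, had 82 in each library (0.32, -0.34 to 0.98). 4931440J10Rik, which begins inside Ints6, a gene of the Integrator complex that processes small nuclear RNAs, had 58 and 72 reads (0.01). Per length, Gm12536, which has 358 exon bases and overlaps the start of the phosphatase gene Ptpn3, was among the 5 highest members, at 548 and 484 CPM per kb with 38 and 42 reads. The intervals of the last 4 all included 0.

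**Figure D5:**
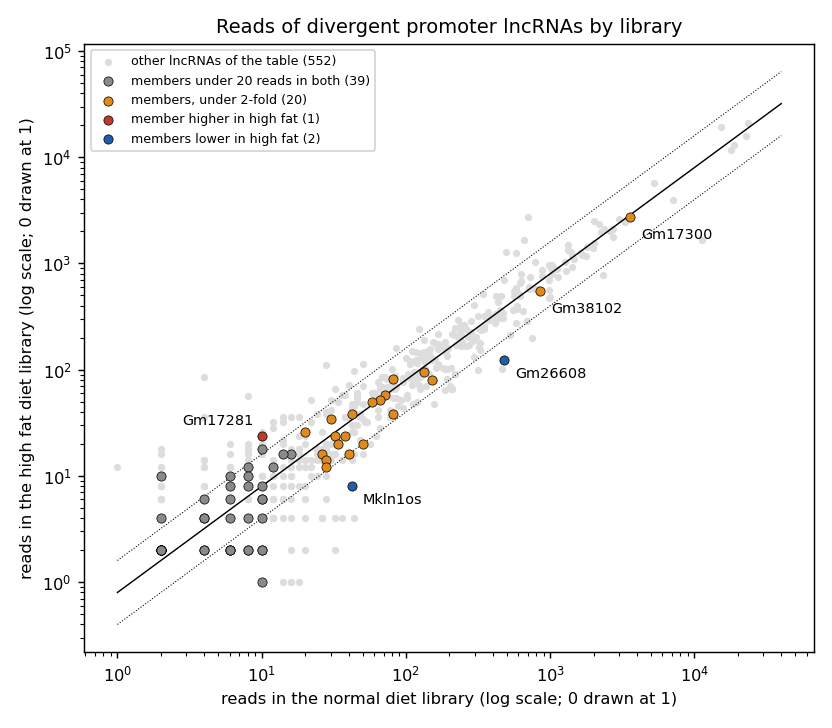
Reads in the ND library (x axis) and the HFD library (y axis), both on log scales, for the 62 members and the other 552 lncRNAs of the table. The solid line marks equal CPM and the dotted lines 2-fold, and Gm26608 stands below the lower dotted line at 478 and 124 reads.

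Members were also grouped by the function of the coding partner. Partners in the transcription factor list belonged to 6 members, of which 2 reached 20 reads and none was called. 9330136K24Rik, opposite the zinc finger gene Zfp52, had 24 reads in the HFD library and 38 in the ND library. Gm26753, opposite Zfp53, had 26 and 20. Their log2 ratios of -0.34 and 0.70 had intervals that included 0. The other 4, at Atf2 (Gm10822, 8 and 10 reads), Rfx7 (4930509E16Rik, 2 and 10), Klf16 (Gm26710, 4 and 8) and Zfp148 (1700007L15Rik, 2 and 6), were under the minimum.

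The metabolic list held 3 members, and 1 of them, Gm26608 at Insig1, was called. 1810012K16Rik, at the mitochondrial ornithine transporter gene Slc25a15, had 10 and 8 reads, and Gm27042, at the proline synthesis gene Aldh18a1, had 2 in each library. The list of RNA processing and translation held 4 members and no call. Besides those at Ints6 and Lsm8 these were Gm26594 at the spliceosome gene Prpf3, with 16 reads in the HFD library and 14 in the ND library, and Gm26610 at Rbm42, with 6 in each.

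Partners in the list of cell cycle, DNA repair and chromatin belonged to 6 members, again with no call. Beside those at Kmt2e and Setd1b, 2010110K18Rik at the cell cycle phosphatase gene Cdc25c had 4 and 10 reads, 6030443J06Rik at the replication origin gene Orc5 had 4 and 2, and 4831440E17Rik at Kmt2c had 2 in each library. 4930532G15Rik at Eprs (10 and 6 reads) fell in this list by the first letters of the symbol alone, since Eprs encodes a transfer RNA synthetase. In the signalling list, with 4 members and no call, were those at Rhof and Ptpn3, together with 5730420D15Rik at Socs2, a brake on growth hormone signalling (10 and 2 reads), and Gm9484 at Bmp2k (2 and 10). The lists of protein folding and mitochondria each held 1 member, 4632404H12Rik at Ube2q1 (2 and 4 reads) and Gm26774 at Sdhaf3 (8 and 6). Selenos, the partner of Gm45081 (4 and 6 reads), begins with Sel, a prefix of the protein folding list. The search missed it because it allowed only short endings after a prefix.

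In all, 39 members stayed under 20 reads in both libraries, with 4 to 32 reads over both. Reads were more numerous in the HFD library for 9, equal for 14 and fewer for 16. Scaled to the totals, the value was higher in the HFD library for 24, since the 14 with equal reads and Gm10822 (8 and 10 reads) count as higher under the smaller HFD total, and lower for 15. None of the 39 had an interval that left out 0. For 19 of the 39 neither library exceeded 6 reads, the floor of 3 read pairs up to which no fold is printed here. Their ratios still enter the tally above and the later count without a read minimum. 2310010J17Rik, at the clathrin assembly gene Picalm, stood at 1 read under HFD, taken as 0 pairs, against 10 under ND.

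Members whose exons are shared with no annotated gene lack the exon overlap behind the strand ambiguity named above. Spans can still overlap, as for 1110020A21Rik, which shares 970 bases of its span with its partner Ppm1b. They numbered 48, of which 12 reached 20 reads, with 0 higher, 1 lower (Gm26608) and a median log2 ratio of -0.64. Their summed share of the table was 0.384% (0.346 to 0.425) in the HFD library and 0.576% (0.534 to 0.620) in the ND library. Without Gm26608 these shares were 0.320% (0.286 to 0.358) and 0.378% (0.344 to 0.414), whose intervals overlapped. The intervals of the 2 libraries were apart with Gm26608 and not without it.

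Marker lncRNAs of cell types could be read only in part. Of 20 gene names set as markers of hepatocytes and other liver cells, 4 were listed. Whether each name is a mouse lncRNA, or particular to its cell type, was not checked. Absence of a name is therefore no reading of a cell type. The names set for immune and Kupffer cells (3 of 6 listed) summed to 56 reads in the HFD library and 96 in the ND library, with none called. Most of the sum was Gm12840 (46 and 88 reads). Lncpint had 2 and 6, and Mir155hg went the other way with 8 and 2. Gm10804, set for hepatocytes, had 66 and 126 reads. None of the 9 names set for stellate, endothelial and bile duct cells was listed. The part of these cells in the members' differences was not tested.

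Both well-read and little-read lncRNAs lay near the limits of the criteria. The member farthest from its partner, 4930528D03Rik at Spata31d1d (1878 bases), had 6 and 10 reads, and the next was Gm17300 (1833 bases), the member with the most reads. Gm26664 at Ier2, just outside at 2276 bases, had 6 and 4. By shared coding exon bases the nearest members were Gm17281 with 42, then Mkln1os and 4931440J10Rik with 39 each. Gm17281 and Mkln1os were called, whereas 4931440J10Rik, with 58 and 72 reads, was not. The first lncRNAs outside were 4930455D15Rik at Wdr36 with 63 shared bases (6 and 4 reads) and 4930505N22Rik at Armh3 with 73 (48 and 42 reads).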

How the data were processed

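RNA of mouse liver was sequenced in 2 libraries, high fat diet (HFD) and normal diet (ND), grouped by the diet label. The submitters' processing notes name the tools HISAT2, HTSeq and DESeq and the build mm8. Tool versions, gene annotation and whether counting used strand are not stated there. The deposited table holds CPM values, called normalized in the file headers, with the authors' fold change (a ratio of the CPM values), its log2, and the authors' p-values and adjusted p-values, printed only as theirs. A second deposited table of numbered lncRNAs was not used here, because numbers cannot be matched to annotation.

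Each CPM value divided by the smallest of its column was whole to within 1e-06 (100% of values), so that value was taken as 1 read. Recovered numbers were even for 607 lncRNAs in the HFD and 613 in the ND library and 1 for the other 7 and 1, so intervals were computed on pairs of 2 reads and a value of 1 read was taken as 0 pairs. Ratios use the scaling totals of 193538 and 242194 reads. Total sequencing depth beyond this table is unknown. Intervals are exact 95% binomial (Clopper-Pearson) for ratios and shares and exact Poisson for levels (scipy 1.17.1), checked on simulated data.

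Positions and types are from GENCODE M21 (GRCm38), matched by Ensembl identifier for 606 of 614 lncRNAs. The files hold no coordinates, so build mm8 was mixed with none. The coding partner is the opposite-strand coding gene with the nearest 5′ end. Near-identical stretches were searched among GENCODE transcripts with blastn 2.17.0. Named members are those called, the 10 with the most reads, the 5 with the most reads per kb, and those whose partner is in 1 of 7 partner lists, with further ones named after their values were seen. Members, lists and motifs were chosen with earlier results of these data known.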

Additional observations from a re-analysis of the deposited data

How the results depend on the processing

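The count of members called, 1 higher and 2 lower, was recomputed under other settings. Without a read minimum there were 5 and 10 of 62, against 78 and 68 of 614 in the whole table, and a minimum of 100 reads left 0 and 1 of 5, against 8 and 11 of 212. A limit of 1.5-fold gave 2 and 8 of 23 (8.70% and 34.8%), against 58 and 66 of 364 (15.9% and 18.1%). One of 4-fold gave 0 and 1 (Mkln1os), against 6 and 9. Median-ratio scaling moved all log2 ratios by -0.05 and gave 1 and 4, against 27 and 34, since 4930598A11Rik and Fam120aos then passed 2-fold. Asking that the interval leave out 0 gave 0 and 2, against 25 and 23. Without members that share any coding exon base it was 0 and 1 of 17. Chosen after the data were seen, the restriction to starts that lie apart gave 0 and 1 of 16. Also chosen then, members that share no exon with any gene gave 0 and 1 of 12, and those without near-identical stretches 0 and 2 of 20. With C230088H06Rik, also chosen then, the count was 2 and 2 of 24. Start distances of 1000 and 500 bases left 1 and 2, of 17 and 14. For all these choices of members the whole table had 28 and 30 of 364. Pseudocounts of 1 and 5 reads left 1 and 2 of 23, against 27 and 29 and 27 and 22 of 364. Fewer lncRNAs are tested under the stricter settings by construction.

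The summed share of 2.25% (high fat diet) and 2.58% (normal diet) was 3.87% and 4.34% of the table without its 5 most abundant lncRNAs, 0.372% and 0.551% for starts within 500 bases, and, chosen after the data were seen, 0.835% and 1.09% without Gm17300 and 0.384% and 0.576% for members that share no exon. Of 69 scaling and pseudocount alternatives over the 23 members with 20 reads, all 69 left the log2 ratio within its interval. Such changes are small beside the intervals from the outset, so this count is no check of the ratios. Per kb of the longest transcript the medians were 36.5 and 35.1 CPM. No paired analysis was possible because there is a single library for either diet, and for this reason no library could be left out. Under 20 reads were found in both libraries for 39 of the 62 members, whose intervals are wide.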
